A study of Mus musculus with 20 samples.

Results

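The positions described here were listed as sites of N6-methyladenosine (m6A) in chromatin-associated RNA of Mettl3 knockout (KO) cells. They were taken from the deposited lists of a KO cardiomyocyte culture (CM KO) and of KO mouse embryonic stem cells (ESC KO), in genes with at least 1 RPKM of chromatin-associated RNA in both KO states. RPKM is the read number scaled to the length of the gene and the size of the library. A position is a gene, a distance within that gene and a 4-base motif, and repeated lines were dropped. By this rule 15327 positions were members, out of 42515 different positions over all 4 m6A lists of the series. They lay in 2727 of the 3774 genes that passed the expression filter.

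m6A is the most common internal mark of messenger RNA. METTL3, in a complex with METTL14 and WTAP, places it on adenosines that are followed by C within a short consensus. Reader proteins of the YTH family then act on the marked RNA. On chromatin, the mark also lies on long noncoding RNAs and on introns of unfinished transcripts, and in stem cells it is known for tuning the turnover of pluripotency transcripts.

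The study profiled C57BL/6 mouse ESCs and cells differentiated from them through embryoid bodies by replating in a cardiomyocyte medium, each wild type (WT) or Mettl3-KO. The labels do not state which part of the gene was removed, or whether a line is 1 clone. The 4 m6A lists (Chrm6A-seq) and the 4 libraries of chromatin-associated RNA (ChrRNA-seq) had 1 sample per group, so no difference between them has a replicate check and no p-value is given. The lists hold no peak height and no read depth, and the sources used here do not name the peak caller, its threshold or its input control. Whether a position listed in KO cells carries m6A, or is background of the antibody or of the peak calling, was not tested.

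The labels were read first against Mettl3 and against marker genes. In ESCs, Mettl3 RNA was 1.73 RPKM with the WT and 1.28 with the KO genotype, and in the differentiated cultures it was 1.18 and 1.07. No list held a position in it. Because the removed part is not stated, this value over the whole gene does not check the label. The cardiomyocyte label was met only in part in the KO culture. The 18 cardiac transcription factors summed to 2.11 RPKM in ESC KO, 14.2 in CM KO and 18.7 in CM WT. Tbx20 stood at 1.78 in CM KO and 2.01 in CM WT, and Nkx2-5 was low in both, at 0.0346 and 0.082. The 21 sarcomere genes with an RNA value summed to 4.19 RPKM in ESC KO, 8.25 in CM KO and 18.1 in CM WT. Of these 21 genes, 14 were higher and 6 lower in CM KO than in ESC KO. Without Tpm1 the sums were 2.25 in ESC KO and 2.29 in CM KO. The contractile genes Myh6 and Tnnt2 stood at 1.27 and 0.742 RPKM in CM WT and at 0.0322 and 0.103 in CM KO, and Myl2 was listed at 0 in CM KO. Hence CM KO names a culture taken through the protocol and not a population of cardiomyocytes.

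The sequences below show what a listed position is. The distance is counted from 0 at the 5′ end of the gene, along its strand, to the first base of the motif. This reading was inferred from RefSeq promoter windows of build GRCm38.p6, where the motif stood at the counted base for 19.7% of positions, against at most 1.49% when the count was shifted by up to 8 bases. Of the KO positions, 327 fell in such a window and 55 had their motif at the counted base (18 shared, 11 in CM KO only, 26 in ESC KO only). The examples were chosen from these after their values were seen. Each is 30 bases, 5′ to 3′ on the strand of the gene, with the motif in capitals. The first 3 were on both KO lists: Ddx5, an RNA helicase (chr11:106788491-106788520, minus strand), Epcam, an epithelial adhesion protein (chr17:87635984-87636013, plus strand), and Gja1, the gap junction protein connexin 43 (chr10:56377315-56377344, plus strand). The next 2 were on the CM KO list alone: Hnrnpr, an RNA-binding protein (chr4:136310938-136310967, plus strand), and Slc38a4, an imprinted amino acid transporter (chr15:97055917-97055946, minus strand). The next 2 were on the ESC KO list alone: the pluripotency genes Nanog (chr6:122707539-122707568, plus strand) and Zfp42 (chr8:43306990-43307019, minus strand). The last 2 lie 99 bases apart in Eif5a, a translation factor, the one listed in CM KO (chr11:69921276-69921305, minus strand) and the other in ESC KO (chr11:69921177-69921206, minus strand). All lie near a transcription start, because only promoter windows were searched. Alone refers here to the KO lists. The positions of Ddx5, Hnrnpr and Nanog and the ESC KO position of Eif5a were also on both WT lists. Of the WT lists, only CM WT held those of Epcam, Gja1 and Slc38a4, and only ESC WT that of Zfp42. Neither WT list held the CM KO position of Eif5a.
Ddx5, both lists: aaagcggctgccgGGACgcagccggcacct
Epcam, both lists: tcttccctctgatGGACtgattctgcacgt
Gja1, both lists: gctccaagttaaaAAACgcttttacgaggt
Hnrnpr, CM KO: aagcagttccgggAAACcccgcgtgctgcc
Slc38a4, CM KO: aagccaatagagaAGACggaagggtctccc
Nanog, ESC KO: ggggggaggagcaGGACctaccctttaaat
Zfp42, ESC KO: gtaagtgtggccgGAACagagttcgtccat
Eif5a, CM KO: cgcctgcgtactaAGACccgtgtgcagcag
Eif5a, ESC KO: gctcgcggcgagcGGACcaggtcaagtcag

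Most positions listed in CM KO were also listed in ESC KO, while most ESC KO positions were not listed in CM KO. In the filtered genes the CM KO list held 7632 positions and the ESC KO list 12282. They shared 4587, which is 60.1% of the CM KO positions, 37.3% of the ESC KO positions and 29.9% of both lists together. A further 3045 positions were on the CM KO list alone and 7695 on the ESC KO list alone. A gene with positions had a median of 2 in CM KO and 3 in ESC KO, and both lists held positions in 2088 genes. Positions in ESC KO alone were found in 537 genes and in CM KO alone in 102 genes.

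The WT lists of the same genes gave the background for these shares. There, 5701 positions were shared, which is 47.4% of 12031 CM WT positions, 51.6% of 11043 ESC WT positions and 32.8% of both together. The share of the union was thus close in WT and KO, while the sizes of the lists differed. In the same genes the CM list was the longer one in WT and the shorter one in KO. Within a cell state, CM KO and CM WT shared 4926 positions (64.5% of CM KO, 40.9% of CM WT), and ESC KO and ESC WT shared 6123 (49.9% of ESC KO, 55.4% of ESC WT). How deeply each list was sequenced is unknown, and its part in these numbers was not tested.

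Many of the CM KO positions with no identical ESC KO position had one close by, and this held for fewer of the ESC KO positions. Of the 3045 positions on the CM KO list alone, 518 had an ESC KO position in the same gene within 20 bases and 1451 (47.7%) within 100 bases. Another 1475 lay farther away in a gene that the ESC KO list also held, and 119 lay in genes it did not hold. Of the 7695 positions on the ESC KO list alone, 1487 (19.3%) had a CM KO position within 100 bases. Most of them, 5220 (67.8%), lay farther away in a gene with CM KO positions, and 988 (12.8%) lay in genes with none. With neighbours within 100 bases counted as shared, the overlap came to 79.1% of CM KO and 49.5% of ESC KO positions. The plot of positions by match shows these classes for each list.

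**Figure D1:**
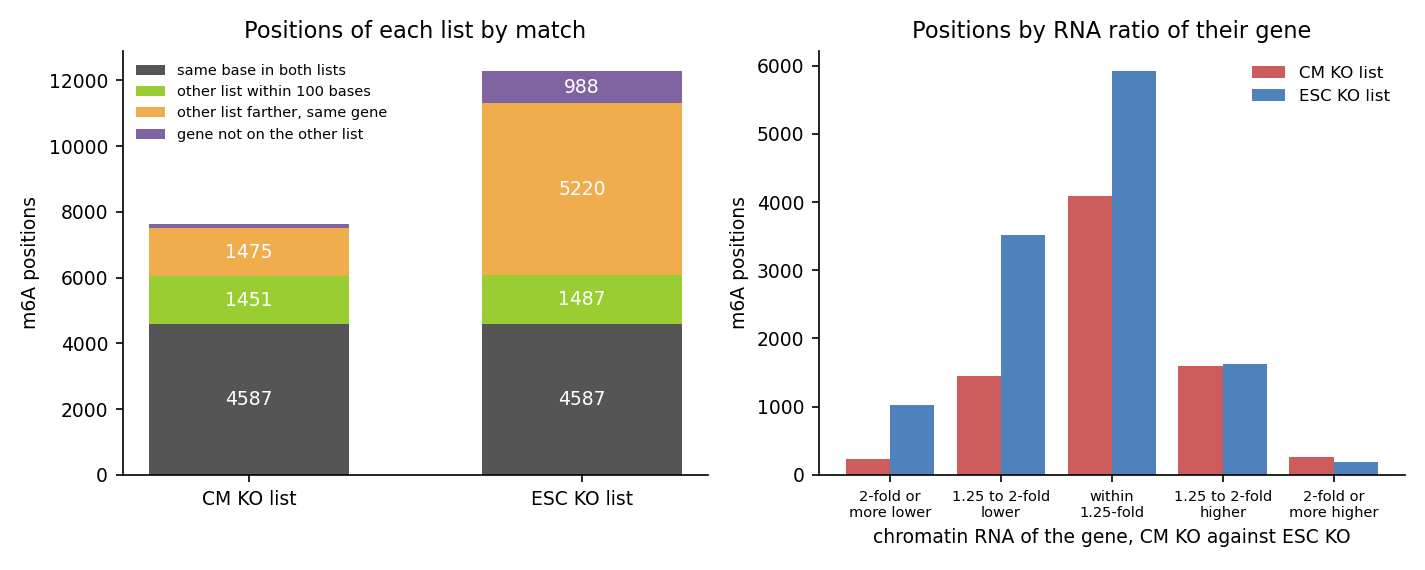
Left, the m6A positions of each KO list (bars start at 0) divided by their match on the other list; right, positions of each list grouped by the chromatin RNA of their gene in CM KO against ESC KO. The 4587 shared positions make up 60.1% of the CM KO bar and 37.3% of the ESC KO bar, and the CM KO bars approach the ESC KO bars as the RNA ratio goes up.

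Shared KO positions were the ones most often listed in WT cells too. Of the 4587 shared positions, 2852 (62.2%) were on both WT lists and 504 (11.0%) on neither. Of the positions in CM KO alone, 1338 (43.9%) were on the CM WT list, 926 (30.4%) on the ESC WT list and 1327 (43.6%) on neither. Of the positions in ESC KO alone, 2776 (36.1%) were on the ESC WT list, 2293 (29.8%) on the CM WT list and 3899 (50.7%) on neither. The positions on 1 KO list alone were thus found on the WT list of their own state more often than on that of the other state.

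The motifs differed with the number of lists that held a position. The consensus of METTL3 favours guanine before the methylated adenosine. GGAC was the motif of 32.7% of shared positions, 27.7% of those in CM KO alone and 23.5% of those in ESC KO alone. AAAC, with no guanine, took the opposite order, with 19.1%, 24.4% and 26.5%. AGAC (24.7% to 25.3%) and GAAC (23.2% to 24.7%) varied little between these classes. Within each class the GGAC share was higher at positions that WT lists also held. Among shared positions it was 25.4% where no WT list held the position, 28.4% with 1 WT list and 35.9% with both. In the same order, it was 23.5%, 28.8% and 35.3% for CM KO alone and 20.2%, 25.0% and 30.6% for ESC KO alone. AAAC went down in that order in every class, from 29.6% to 19.4% for ESC KO alone. Over whole lists in these genes, GGAC made up 30.7% of CM KO, 27.0% of ESC KO, 31.3% of CM WT and 29.7% of ESC WT positions. Positions of 1 list are not replicates, so these shares carry no test.

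**Figure D2:**
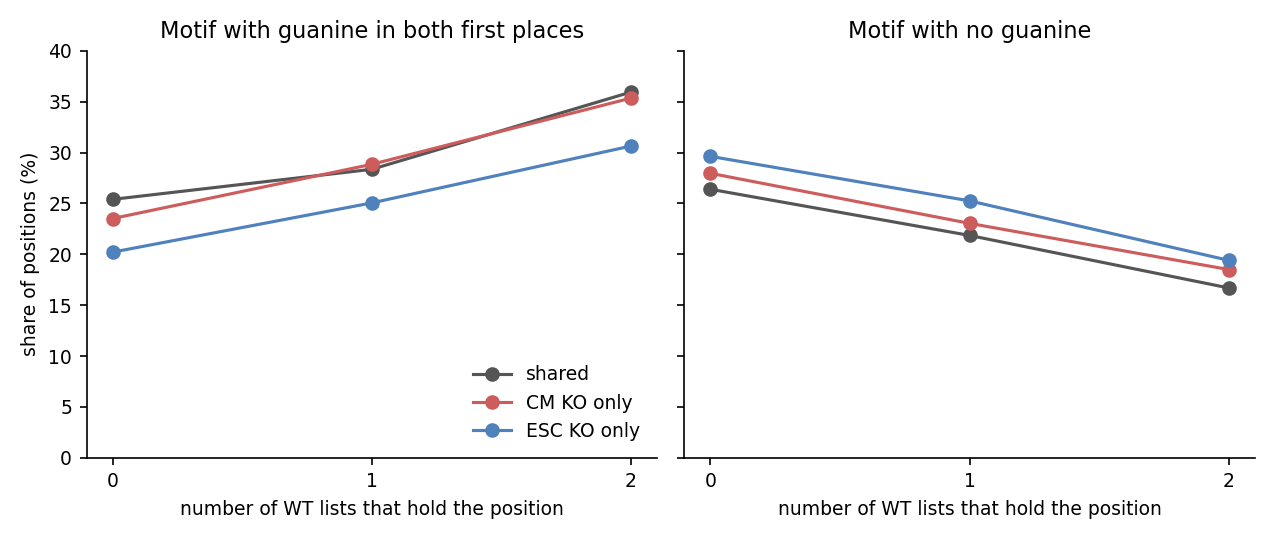
Share of positions (%) with GGAC (left) and with AAAC (right) against the number of WT lists that also held the position, for shared, CM KO only and ESC KO only positions. The GGAC share goes from 20.2% to 25.4% with no WT list up to 30.6% to 35.9% with both, and the AAAC share goes down over the same steps.

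Along protein-coding genes, positions in ESC KO alone lay nearer the middle of the gene than shared ones. On a scale from 0 at the 5′ end to 1 at the 3′ end of the RefSeq gene, introns included, the median place was 0.677 for 4283 shared positions, 0.696 for CM KO alone and 0.572 for ESC KO alone. ESC KO positions with no CM KO position within 100 bases had a median place of 0.530. The last 2 kb of the gene held 20.1% of shared, 19.8% of CM KO only and 17.6% of ESC KO only positions. Shared positions were the most frequent at the start, with 11.9% in the first 1 kb against 6.93% and 6.95% of those on 1 list. Because genes with many positions weigh more here, the place was also compared within each of 821 genes that had at least 3 positions on both lists. The median place of the positions was nearer the 3′ end in CM KO in 436 genes, nearer the 5′ end in 301 and equal in 84. The medians over these genes were 0.714 in CM KO and 0.655 in ESC KO, but the median of the differences within genes was 0.000639, so the typical gene showed next to no shift. The ratio of CM KO to ESC KO positions was 0.669 in genes under 20 kb, 0.612 from 20 to 100 kb and 0.572 above 100 kb. Positions past the end of the RefSeq gene, as in Tet1, where listed distances exceed its RefSeq length of 82.9 kb, were left out. In promoter windows the motif stood at the counted base for only 19.7% of positions, so places on the RefSeq scale are approximate. Exon, intron and UTR annotation was not used here.

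**Figure D3:**
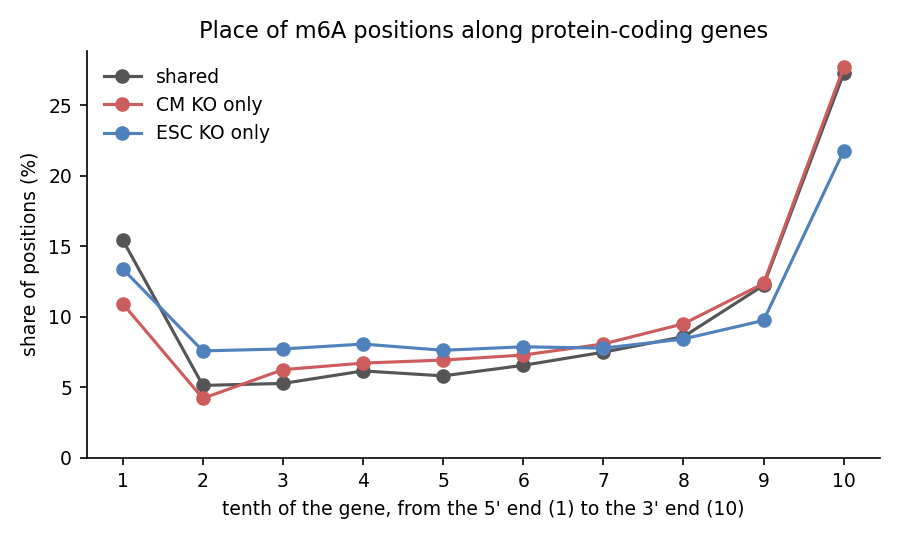
Share of the positions of each class (%) in each decile of protein-coding genes, from the 5′ end (1) to the 3′ end (10). All 3 classes are highest in decile 10, with 27.3% of shared, 27.7% of CM KO only and 21.8% of ESC KO only positions, and ESC KO only positions lie above the others in deciles 2 to 6.

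The ratio of CM KO to ESC KO positions went up with the ratio of chromatin RNA between these states. In the 169 genes (4.48% of the filter) whose RNA was at least 2-fold lower in CM KO, CM KO had 235 positions and ESC KO 1019, a ratio of 0.231. In the 111 genes (2.94%) whose RNA was at least 2-fold higher in CM KO, the numbers were 269 and 194, a ratio of 1.39. Between these ends the ratio was 0.412 for genes 1.25 to 2-fold lower and 0.978 for genes 1.25 to 2-fold higher. In the 1947 genes whose RNA lay within 1.25-fold, CM KO still had fewer positions, 4087 against 5921, a ratio of 0.690. In those genes the shared positions were 62.4% of CM KO and 43.1% of ESC KO, not far from the shares over all genes. The shares moved with the RNA ratio. In genes at least 2-fold lower in CM KO they were 66.8% of CM KO and 15.4% of ESC KO positions. In genes at least 2-fold higher they were 38.3% and 53.1%. The samples are bulk cultures, so fewer cells of a type and less RNA per cell cannot be told apart. The median RNA difference between CM KO and ESC KO, as log2(RPKM + 1), was -0.04 for genes on both lists, -0.17 for genes on the ESC KO list alone and 0.14 for genes on the CM KO list alone, beside -0.07 for all 3774 genes. These signs depend on the filter and the scaling: at 5 RPKM the value for CM KO alone was -0.32, and that for both lists was 0.0222 without the filter and 0.0235 with the median of all genes subtracted.

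Genes with a marked excess of positions were mostly in excess in ESC KO. A gene was called where 1 list had at least 3 positions more and at least 2-fold more than the other. This called 475 genes (12.6% of the filter) as more in ESC KO and 28 genes (0.742%) as more in CM KO. With the numbers scaled to lists of equal length the counts were 258 and 162, so the split depends on how much each list holds. In WT the same rule called 147 genes (3.9%) as more in ESC and 226 (5.99%) as more in CM. At least 3 positions in ESC KO and none in CM KO were found in 96 genes (2.54%), and the reverse in 3 genes (0.0795%), Tcf12, Maged1 and Dusp6. Without the RNA filter these 2 counts were nearly equal, 176 and 175, and 295 genes were called as more in CM KO. RNA was lower in CM KO for 393 of the 475 genes and higher for 26 of the 28, while of all 2727 genes with a position it was lower for 1625 and higher for 1102.

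**Figure D4:**
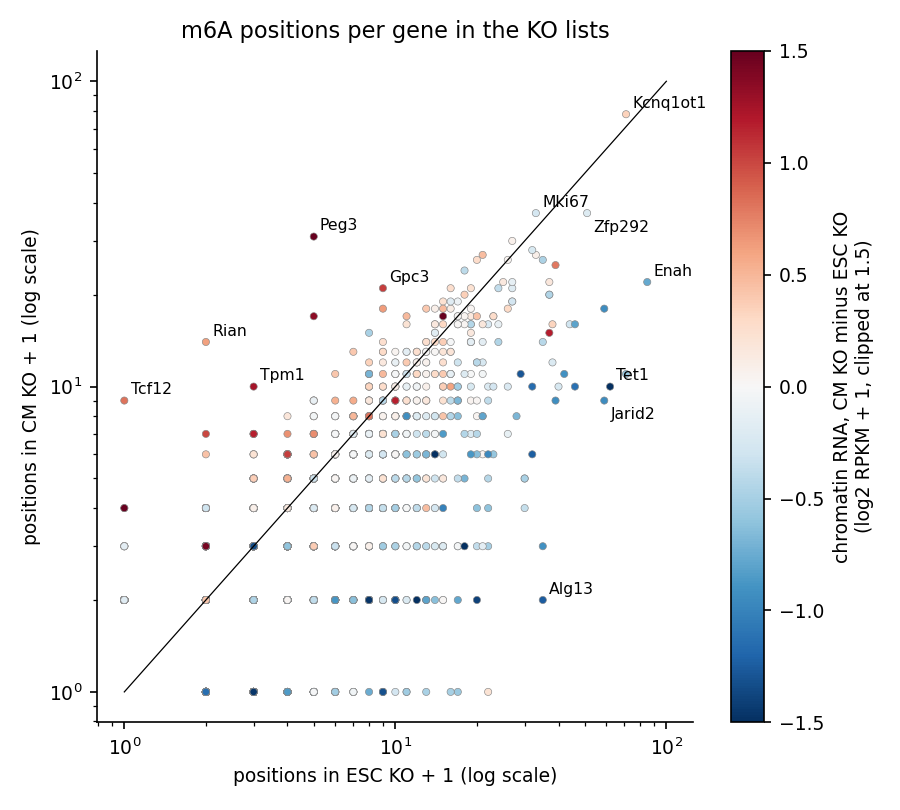
Positions per gene in CM KO (vertical) against ESC KO (horizontal), each plus 1 on a log scale, with 1 point per gene coloured by its difference in chromatin RNA. Enah, Tet1 and Jarid2 lie far to the ESC KO side with lower RNA in CM KO, and Peg3, Rian and Gpc3 to the CM KO side.

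The genes with the most shared positions were Kcnq1ot1, Zfp292, Mki67, Gm47283, Ankrd17, Ddx17, Enah, Rbm39, Fn1 and Zc3h11a, with 32 down to 13 shared positions each. Kcnq1ot1 is a long noncoding RNA that silences an imprinted cluster in cis (chr7:143213111-143296547). In the order ESC WT, ESC KO, CM WT, CM KO it had 11, 70, 51 and 77 positions, of which the KO lists shared 32. Its RNA was 3.84, 8.43, 4.88 and 11.0 RPKM in the same order, so both KO libraries stood above both WT libraries. Kcnq1ot1 overlaps Kcnq1, and whether the counting used strand is not stated. Zfp292, a zinc finger protein (chr4:34803110-34882983), had 31, 50, 38 and 36 positions, with 27 shared by the KO lists and RNA between 3.44 and 4.94 RPKM in all libraries. Mki67, the proliferation marker Ki-67 (chr7:135689784-135716450), had 33, 32, 36 and 36 positions, with 24 shared. Its position numbers stayed within 4 of each other over all lists, while its RNA ran from 5.13 RPKM in CM WT to 11.4 in ESC KO. Ddx17, an RNA helicase, had 17, 18, 22 and 20 positions with 15 shared, and Rbm39, a splicing factor, had 19, 24, 29 and 21 with 13 shared. Of the fibronectin gene Fn1, 13 positions were shared, 11 were in CM KO alone and 25 in ESC KO alone, at 11.2 RPKM in CM KO and 6.04 in ESC KO. In all of these genes except Enah the numbers of the KO lists differed by less than 2-fold. For Zfp292, Gm47283, Ankrd17, Rbm39, Fn1 and Zc3h11a, which list had more positions turned when the lists were scaled to equal length.

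The genes with the largest excess of positions in CM KO alone over ESC KO alone were Peg3, Rian, Meg3, Gpc3, Ptbp2, Tcf12, Ncl and Kcnq1ot1. Peg3, a paternally expressed zinc finger gene (chr7:6703892-6730462), had 9, 4, 30 and 30 positions, with the ESC lists first and WT before KO. The KO lists shared 3 of them and 27 were in CM KO alone. Its RNA was 2.33, 1.31, 15.0 and 11.6 RPKM in that order, so both CM libraries lay above both ESC libraries in positions and in RNA. Meg3 and Rian are maternally expressed noncoding RNAs of the Dlk1 region, and both had more positions on the CM lists than on the ESC lists. Meg3 had 10, 4, 22 and 16 positions at 6.45, 3.34, 18.3 and 10.0 RPKM. Rian, which overlaps Rtl1 and several small RNA genes, had 7, 1, 48 and 13 positions at 15.8, 9.91, 20.3 and 15.8 RPKM. For Rian, CM KO and ESC WT had nearly the same RNA and 13 against 7 positions. Gpc3, a heparan sulfate proteoglycan, had 2, 8, 49 and 20 positions, with only 3 shared by the KO lists. Ptbp2, a splicing regulator, had 3, 8, 13 and 17 positions, of which 7 were shared and 10 in CM KO alone, at 2.37 RPKM in ESC KO and 4.24 in CM KO. Tcf12, a basic helix-loop-helix transcription factor, had 1, 0, 9 and 8 positions. Ncl, which encodes nucleolin and holds several small nucleolar RNAs, differed from these in its RNA. It had 14 positions in CM KO and 7 in ESC KO, at 101 RPKM in CM KO and 142 in ESC KO. Among the genes with positions in CM KO and none in ESC KO were Tcf12 with 8, the MAGE family gene Maged1 and the MAP kinase phosphatase Dusp6 with 3 each, and the ubiquitin ligase genes Siah1a and Fbxw11, of 6 genes with 2 each.

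The genes with the largest excess in ESC KO alone were Enah, Trip12, Tet1, Jarid2, Gm21992, Trps1, Alg13 and Ranbp17. Enah, a regulator of actin filaments (chr1:181896384-182027556), had 72 and 84 positions on the ESC lists (WT, then KO) and 18 and 21 on the CM lists. The KO lists shared 14 of them and 70 were in ESC KO alone, at 11.0 RPKM in ESC KO and 6.04 in CM KO. Tet1, which oxidises 5-methylcytosine and is high in ESCs (chr10:62804570-62887469), had 60, 61, 14 and 9 positions, and its RNA was 11.8, 8.72, 1.45 and 1.70 RPKM. Jarid2, a cofactor of Polycomb repressive complex 2, had 59, 58, 13 and 8 positions at 8.80, 7.14, 2.95 and 3.23 RPKM. In Enah, Tet1 and Jarid2 both ESC lists stood above both CM lists, in WT and in KO. Trip12, a ubiquitin ligase, had 33, 70, 14 and 10 positions, so its ESC KO list held over 2-fold as many as its ESC WT list, at 7.74 and 6.97 RPKM. Alg13, of the protein glycosylation pathway, had 18, 34, 2 and 1 positions, and Ranbp17, of the nuclear transport receptors, 9, 34, 1 and 2. Trps1, a GATA-type repressor, had 17, 45, 11 and 9. In these 4 genes ESC KO had more positions than ESC WT. Gm21992 overlaps Rbm4, Rbm4b and Rbm14, so its 58 ESC KO and 17 CM KO positions may be listed under those genes too. The maps of Mki67, Peg3, Tet1 and Enah show the positions of each list along the gene.

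**Figure D5:**
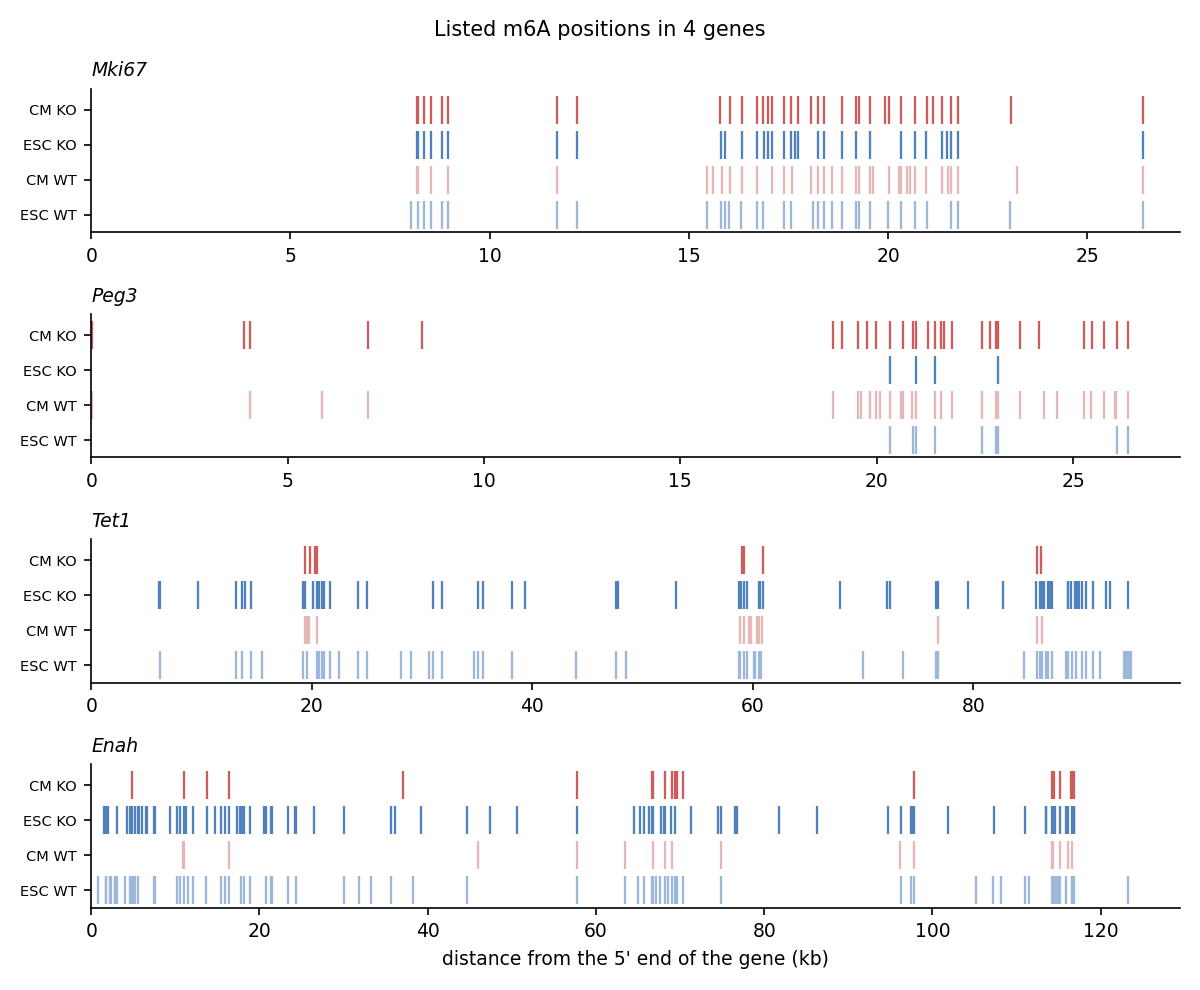
Listed m6A positions (1 tick each) along Mki67, Peg3, Tet1 and Enah, as distance in kb from the 5′ end of the gene, for the CM KO, ESC KO, CM WT and ESC WT lists. Mki67 carries 32 to 36 positions on every list, Peg3 carries 30 on both CM lists, and Tet1 and Enah carry 60 to 84 on the ESC lists against 9 to 21 on the CM lists.

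Among the genes with the most positions in ESC KO and none in CM KO were Gm20716, Nap1l1, Tex10 and Tmem39a. Nap1l1, a histone chaperone, had 7 and 15 positions on the ESC lists (WT, then KO) and 2 and 0 on the CM lists, at 18.4, 15.4, 10.3 and 10.6 RPKM. Tex10, a partner of SOX2 in ESCs, had 6, 12, 7 and 0. In both genes the CM KO list was the only list of the 4 with no position. Gm20716, a noncoding RNA, had 21 positions in ESC KO and 0 in CM KO, but it overlaps Adnp. Of these positions, 13 recurred with the same spacing and motif on the CM KO list under Adnp, so in this gene the difference lies at least partly in the gene assigned. Of the 96 genes, Gm20716 was the only one with at least 3 positions that recurred in this way.

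The genes called between the KO lists were also read on the WT lists. Both sets were called without scaling, from 7632 CM KO and 12282 ESC KO positions. The part of list length in how far each set resembled the WT lists was not tested. Of the 28 genes called as more in CM KO, 17 (60.7%) were also called as more in CM WT and 0 as more in ESC WT. By any excess, 26 of the 28 had more positions in CM WT and 1 in ESC WT. Of the 475 genes called as more in ESC KO, 111 (23.4%) were called as more in ESC WT and 22 (4.63%) as more in CM WT. Over all filtered genes these shares were 3.9% and 5.99%. By any excess, 273 of the 475 had more positions in ESC WT and 125 in CM WT. Of all 3774 filtered genes, 786 had more in ESC WT and 1342 in CM WT. The 475 genes held 4509 positions in ESC KO, 1156 in CM KO, 3490 in ESC WT and 2419 in CM WT. For these 475 genes, the ratio of CM to ESC positions was thus 0.256 in KO and 0.693 in WT, beside 0.621 and 1.09 over all filtered genes. Because KO values chose the genes, the KO ratio is a description of the choice. The KO and WT comparisons share no sample.

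Several of the genes called as more in ESC KO had similar position numbers in both WT lists. Dido1, a chromatin-binding protein, had 30 positions in ESC WT, 31 in CM WT, 45 in ESC KO and 15 in CM KO. Huwe1, a ubiquitin ligase, had 20, 24, 37 and 11 in that order. Psme4, a proteasome activator, had 5, 5, 14 and 1 positions, at 3.32 RPKM in ESC KO and 3.36 in CM KO. Caprin1, an RNA-binding protein, had 20, 21, 19 and 8, at 7.36 and 7.52 RPKM. In Psme4 and Caprin1 the KO lists differed while the RNA of the KO libraries was within 1.25-fold. Of the 1947 genes with RNA within 1.25-fold, 166 (8.53%) were called as more in ESC KO and 3 (0.154%) as more in CM KO. Both shares were below those of all filtered genes, 12.6% and 0.742%.

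Lists of genes with known roles were read beside the ratio over all filtered genes, which was 0.621 CM KO positions for each ESC KO position. Of all filtered genes, 12.6% were called as more in ESC KO and 0.742% as more in CM KO. The members of these lists were chosen with earlier results of these data known. The lowest ratio of CM KO to ESC KO positions among the lists was that of the pluripotency genes. Of 32 members 18 passed the filter, with 57 CM KO and 213 ESC KO positions, a ratio of 0.268, and 11 were called as more in ESC KO and 0 as more in CM KO. Their median log2 RNA difference was -1.34, beside -0.07 for all genes. Rif1, a regulator of replication timing, had 11 shared, 8 CM KO only and 25 ESC KO only positions, Tet2 had 5, 5 and 23, and L1td1, an RNA-binding protein of ESCs, had 2, 0 and 15. Nanog had 2 positions in CM KO and 7 in ESC KO, and Zfp42 had 1 and 11. Without Tet1 the ratio of the list was 0.316.

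Genes of the m6A machinery itself lay near the background. Of 25 members 16 passed the filter, with 57 CM KO and 88 ESC KO positions, a ratio of 0.648. Of these, 2 were called as more in ESC KO, beside 12.6% of all filtered genes. Shared positions made up 70.2% of their CM KO positions. The cytoplasmic reader gene Ythdf3 had 6 shared, 2 CM KO only and 6 ESC KO only positions, the nuclear reader gene Ythdc1 had 5, 0 and 4, and Wtap had 4, 0 and 6. Hnrnpc, which binds RNA opened by m6A, had 2, 0 and 12. Mettl14 held no position on any list.

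The chosen lists of noncoding and imprinted genes had more positions in CM KO than in ESC KO, as had the single sarcomere gene described below. This did not hold for noncoding genes as a class. The 43 filtered genes with a position and a RefSeq long noncoding RNA biotype had 203 CM KO and 236 ESC KO positions. Of 17 chromatin-associated long noncoding RNAs 11 passed the filter, with 142 CM KO and 106 ESC KO positions, a ratio of 1.34. Of these, 3 were called as more in CM KO and 1 as more in ESC KO. Over all filtered genes the shares called were 0.742% and 12.6%. Neat1, the scaffold of paraspeckles, had 2 and 12 positions on the ESC lists (WT, then KO) and 18 and 17 on the CM lists. Malat1, an abundant RNA of nuclear speckles, had 6 positions on both KO lists, all of them shared. Of 20 imprinted genes 6 passed, with 144 and 108 positions. Of these, 2 were called as more in CM KO and 1 as more in ESC KO. These 2 lists share members, among them Kcnq1ot1, without which their ratios were 1.81 and 1.76. Peg10, a retrotransposon-derived imprinted gene, had 16 positions in CM KO and 14 in ESC KO although its RNA was 59.0 RPKM in CM KO and 3.86 in ESC KO. A 15.3-fold difference in RNA thus went with nearly the same number of positions.

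Chromatin regulators had a ratio below that of all genes, and that of the cell cycle genes was close to it unless Mki67 was left out. Of 33 chromatin regulators 25 passed, with 162 CM KO and 330 ESC KO positions, a ratio of 0.491, or 0.569 without Tet1. Of the 25, 8 were called as more in ESC KO and 0 as more in CM KO. Over all filtered genes the shares called were 12.6% and 0.742%. Going the other way, the histone methyltransferase gene Kmt2a had 29 positions in CM KO and 26 in ESC KO and Kmt2d had 25 and 19. Suz12, a core subunit of Polycomb repressive complex 2, had 2 and 14, while Ezh2, its catalytic partner, had none on any list. Of 26 cell cycle genes 21 passed, with 67 and 115 positions, and 4 were called as more in ESC KO, not far from the 12.6% of all filtered genes. Their ratio was 0.583 with Mki67 and 0.373 without it. Top2a, which untangles DNA, had 3 positions in CM KO and 19 in ESC KO, at 8.44 and 13.5 RPKM. Of 12 p53 targets 8 passed, with 23 and 43 positions, and 3 were called as more in ESC KO. Of 15 ribosomal protein genes 14 passed, with 7 and 21 positions, and 2 were called as more in ESC KO. Immediate early genes (4 of 19 passed, 13 and 16 positions) and WNT and BMP genes (5 of 20, 18 and 21) had similar numbers on both lists. Of the immediate early genes, 1 was called as more in ESC KO.

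Lineage genes rarely passed a filter that asks for RNA in both states. Of 24 sarcomere genes only Tpm1, a tropomyosin, passed. It had 0 and 2 positions on the ESC lists (WT, then KO) and 22 and 9 on the CM lists, at 2.06, 1.94, 7.03 and 5.96 RPKM. Of 18 fibroblast and matrix genes 2 passed, with 25 CM KO and 39 ESC KO positions, most of them in Fn1. No cardiac transcription factor, visceral endoderm, blood and endothelium or neural marker passed. The RNA of markers of other cell types differed between the KO states. The summed RPKM went from 9.73 in ESC KO to 39.9 in CM KO for fibroblast and matrix genes, from 0.319 to 8.49 for visceral endoderm, from 1.06 to 50.8 for blood and endothelium, and from 4.04 to 1.92 for neural genes. Without Stmn2 the neural sum went from 1.04 to 1.40, and 3 of 7 neural genes were higher in CM KO. Pluripotency genes went from 173 to 56.3. The part of this change in cell types in the differences between the m6A lists was not tested.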

How the data were processed

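Per the submitters' processing notes, the build was mm10 and the tools included HISAT2, Bowtie, MACS2, Picard and cutadapt, with no version, role or order. The sources used here do not say how the m6A lists were called. Fragmented chromatin-associated RNA was enriched with m6A antibodies, per the labels' protocols. The deposited m6A lists give a gene, a position and a motif, without height or depth. The deposited RNA tables give RPKM per gene, per the file headers, so read depth is unknown. RPKM was used as deposited, with a pseudocount of 1 in log2 values.

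From these files, repeated lines (88 to 136 per list) were dropped and positions were matched by identical gene and distance in Python 3.11.15 with pandas 2.3.3 and numpy 2.4.6. The scripts were tested on simulated data. Gene places, biotypes, overlaps and promoter windows came from RefSeq (GRCm38.p6), whose gene ends can differ from the authors' annotation. Sequence could therefore be read only in promoter windows and not, as planned, around all positions. ATAC-seq was not used.

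Named genes were the 10 with the most shared positions, the 8 with the largest excess on either list alone, the 5 with the most positions on 1 list and none on the other, and up to 4 members with the most positions of each gene list; other genes were chosen after their values were seen. Of the named genes, 1 is not reported here. The members and the 16 gene lists were chosen with earlier results of these data known. Alternatives covered the RNA filter, the distance and motif that count as a match, scaling and the pseudocount. With 1 sample per group no test was made.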

Additional observations from a re-analysis of the deposited data

Results flagged for a closer look

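The direction of the difference in list length turned with the genotype. Over all genes, the CM WT list held 25617 positions and the ESC WT list 16983, so CM had 8634 more. The CM KO list held 13962 and the ESC KO list 18076, a difference of -4114. With 1 list per group this difference was not tested, and the depth of the lists is unknown.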

How the results depend on the processing

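Of 94 alternative values for the main results, 35 stayed close to the value reported, 56 moved and 3 turned in sign. Shares and medians were called close inside a 95% interval around the reported value, and counts within a fixed fold of it. The interval takes positions or genes as units, so it only sorts the values and is no test. The cause was not tested beyond the smaller or larger set of genes that each filter leaves. Without the RNA filter, shared positions were 49.7% of CM KO and 38.4% of ESC KO in 3955 genes with both, 175 genes had 3 or more positions in CM KO alone and 176 in ESC KO alone, 295 genes had more in CM KO, GGAC was 31.7% of CM KO only and 26.0% of ESC KO only positions, and the median RNA difference was 0.0222 for genes on both lists and 0.34 for CM KO alone. At 0.5 RPKM, the values were 57.9%, 38.5%, 3222 genes with both, 10 with CM KO alone, 73 with more in CM KO, 25.3% GGAC in ESC KO only and -0.0051 for the RNA of genes on both lists. At 5 RPKM, they were 61.8% of CM KO, 193 genes with both, 0 with CM KO alone, 7 with ESC KO alone, 3 with more in CM KO and 62 in ESC KO, GGAC of 29.2%, 19.8% and 16.6% (shared, CM KO only, ESC KO only), and RNA medians of -0.17 (both), -0.48 (ESC KO alone) and -0.32 (CM KO alone). With matches within 100 bases, the shares were 79.1% and 49.5%, GGAC 31.4% of shared and 22.5% of ESC KO only positions, and 79.2% of shared positions were on both WT lists. With GGAC positions only, the shares were 64.1% and 45.4%, 1157 genes had both, 48 had ESC KO alone, 68.2% were on both WT lists, and 12 and 104 genes had more in CM KO and ESC KO. Against none on the other list, 5 or more positions were found in 1 gene (CM KO) and 26 genes (ESC KO), and 1 or more in 102 and 537. A pseudocount of 0.1 gave RNA medians of -0.0669 (both) and -0.25 (ESC KO alone), and subtracting the median of all genes gave 0.0235 and -0.10. Scaling to equal lists gave 162 and 258 genes with more in CM KO and ESC KO. Without genes that overlap another RefSeq gene, an alternative chosen after seeing the data, the shares were 61.6% and 39.2%, 1120 genes had both, 1 had CM KO alone, 51 had ESC KO alone, GGAC was 24.6% of ESC KO only positions, and 11 and 225 genes had more in CM KO and ESC KO. Scaled to equal lists, CM KO minus ESC KO turned to 7.93 for Zfp292, 12.5 for Gm47283, 9.84 for Ankrd17, 9.79 for Rbm39, 0.623 for Fn1 and 7.79 for Zc3h11a, and Mki67 came to -1 with GGAC only. Counting positions under more than 1 gene once was not run, because the lists give distances within genes and not genome coordinates. No paired analysis was possible because each m6A and RNA group has 1 sample. Unknown depth limits every absence from a list.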

Other observations

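Outside the RNA filter, the positions listed in KO cells followed the state that held the RNA. The 693 genes at 1 RPKM or more in CM KO alone had 2235 CM KO and 1188 ESC KO positions, of which 678 were shared. The 419 genes at 1 RPKM or more in ESC KO alone had 429 and 1250, of which 286 were shared. The largest group outside the filter was the 2498 genes that reached 1 RPKM in neither KO state. They had 3650 CM KO and 3333 ESC KO positions, of which 1381 were shared. Airn, the noncoding RNA that silences Igf2r on the paternal allele, had 86 positions in CM KO and 1 in ESC KO, at 7.11 and 0.265 RPKM, and 130 in CM WT and 0 in ESC WT. It overlaps Igf2r, and whether counting used strand is not stated. Apob, the apolipoprotein of liver and visceral endoderm, had 27 positions in CM KO and 0 in ESC KO, and Pcdh7, a protocadherin, 14 and 0. Vcan, a matrix proteoglycan, had 24 and 8. On the ESC side, Cobl, an actin nucleator, had 1 position in CM KO and 38 in ESC KO, at 0.194 and 4.71 RPKM, and Esrrb, a nuclear receptor of the pluripotency network, had 3 and 16.

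Cardiac transcription factors had 25 positions in CM KO and 0 in ESC KO, none of them in a gene that passed the filter. Tbx20 had 5, Gata6 3 and Gata4 1 in CM KO, and 8, 4 and 8 in CM WT. Visceral endoderm genes had 34 positions in CM KO and 3 in ESC KO, most of the CM KO ones in Apob.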
